A study of Mus musculus with 6 samples.

Results

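The genes described here are the 9 mouse genes of arginine uptake and metabolism Slc7a2, Slc7a1, Arg1, Arg2, Nos2, Ass1, Asl, Oat and Ddah2, chosen by name from the 55401 genes listed. They were chosen with earlier results of these data known. All 9 were matched by Ensembl identifier and all 9 passed the filter on low counts, which left 18277 genes to test. The sequenced RNA came from F4/80+ cells isolated from liver tumours of mice, F4/80 being a surface protein of mouse macrophages. Tumours grew for 14 days from Hepa 1-6 cells, a mouse hepatoma line, set into the right liver lobe. In the 3 Sms-OE libraries the injected hepatoma cells carried a lentivirus that overexpresses Sms, the gene of spermine synthase. In the 3 control libraries the genotype is given as WT Control, and neither group had any further treatment. The change was made in the tumour cells, so the sorted cells differ by the tumour they came from. Strain, age and sex of the mice, the way the cells were sorted, and whether each library is its own mouse are not stated in what was used here. The p-values therefore set group differences only against the spread of these libraries, which may be technical. The title of the study concerns spermine synthase and M2 polarization.

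Macrophages take up arginine mainly through cationic amino acid transporters and spend it along competing routes. Arginase splits it into ornithine and urea, and ornithine feeds polyamine and proline synthesis, a route tied to alternative (M2) activation in mouse macrophages. Inducible nitric oxide synthase turns arginine into nitric oxide and citrulline, a route tied to classical (M1) activation, and citrulline can be rebuilt into arginine by argininosuccinate synthase and lyase. Hepatocytes carry the same arginase as part of the urea cycle, so liver cells in a sort could add to its RNA.

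Total counts were 49833764 to 51123047 in Sms-OE libraries and 51583985 to 58154006 in control libraries, and 1 CPM (the count scaled to library size with TMM factors) stood for 48.0 to 59.9 counts. Sms itself averaged 33.1 ± 0.15 CPM in the sorted cells of Sms-OE tumours and 26.9 ± 1.3 CPM in those of control tumours (SD, n = 3 each). Sms was called higher in Sms-OE (log2 0.30 ± 0.09 SE, adjusted p = 0.0382 by edgeR's quasi-likelihood test). Which cells this RNA came from was not tested. All 12 macrophage markers were detected, with the F4/80 gene Adgre1 at 521 to 660 CPM in Sms-OE and 334 to 539 CPM in control. Neutrophil genes were abundant as well. In TPM, counts per length of each gene's longest annotated transcript scaled to the same sum in each library, Csf3r, the G-CSF receptor, stood at 1025 to 1279 TPM in Sms-OE and 692 to 999 TPM in control, above Adgre1 at 386 to 445 TPM in Sms-OE and 220 to 294 TPM in control. Haemoglobin genes took 0.485% and 0.512% of the counts of Sms-OE replicates 2 and 3, 0.0225% of those of Sms-OE replicate 1 and at most 0.0172% of those of a control library. Mitochondrial genes took 2.15% to 3.12% of the counts in Sms-OE libraries and 4.99% to 7.13% in control libraries, without overlap. With mitochondrial and haemoglobin rows removed, 3 of the 9 arginine genes were again higher and none was lower.

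Of the 9 arginine genes, 3 were higher in Sms-OE and none was lower at an adjusted p under 0.05 (edgeR's quasi-likelihood test, Benjamini-Hochberg adjustment over all 18277 genes). At an unadjusted p under 0.05 there were 6 of 9, against 38.3% of all genes tested, among them Ass1 and Asl on the lower side, and DESeq2 and limma-voom each called Ass1 lower. Across all genes tested the same adjusted threshold called 12.5% higher and 14.3% lower, 26.9% in all (2293 genes higher and 2615 lower, against 2521 and 1788 when scaled by library size alone, and 2090 and 1773 after offsets for length and GC content). The genes that rose were Arg1, Slc7a2 and Nos2, that is, the cytosolic arginase, a transporter and the nitric oxide synthase. The median log2 fold change was 0.42 over the 9 genes and -0.0006 over all genes tested. Since the 9 genes were chosen with earlier results of these data known, their shares and median are description only. In 7 of the 9 genes the CPM of the groups did not overlap (5 higher and 2 lower in Sms-OE), beside 44.1% of all genes tested (20.8% higher and 23.3% lower). Leaving out both haemoglobin-rich libraries, an alternative chosen after seeing the data, kept only Sms-OE replicate 1, the highest Sms-OE library for Arg1 and Slc7a2. The log2 value was then 1.64 for Arg1, 1.69 for Slc7a2 and 0.65 for Nos2, with no spread within Sms-OE to measure. Without control replicate 1 or without control replicate 3 only 1 of the 9, Arg1, was higher, and without the low-count filter 1 was higher (Arg1) and 1 lower (Ass1).

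**Figure D1:**
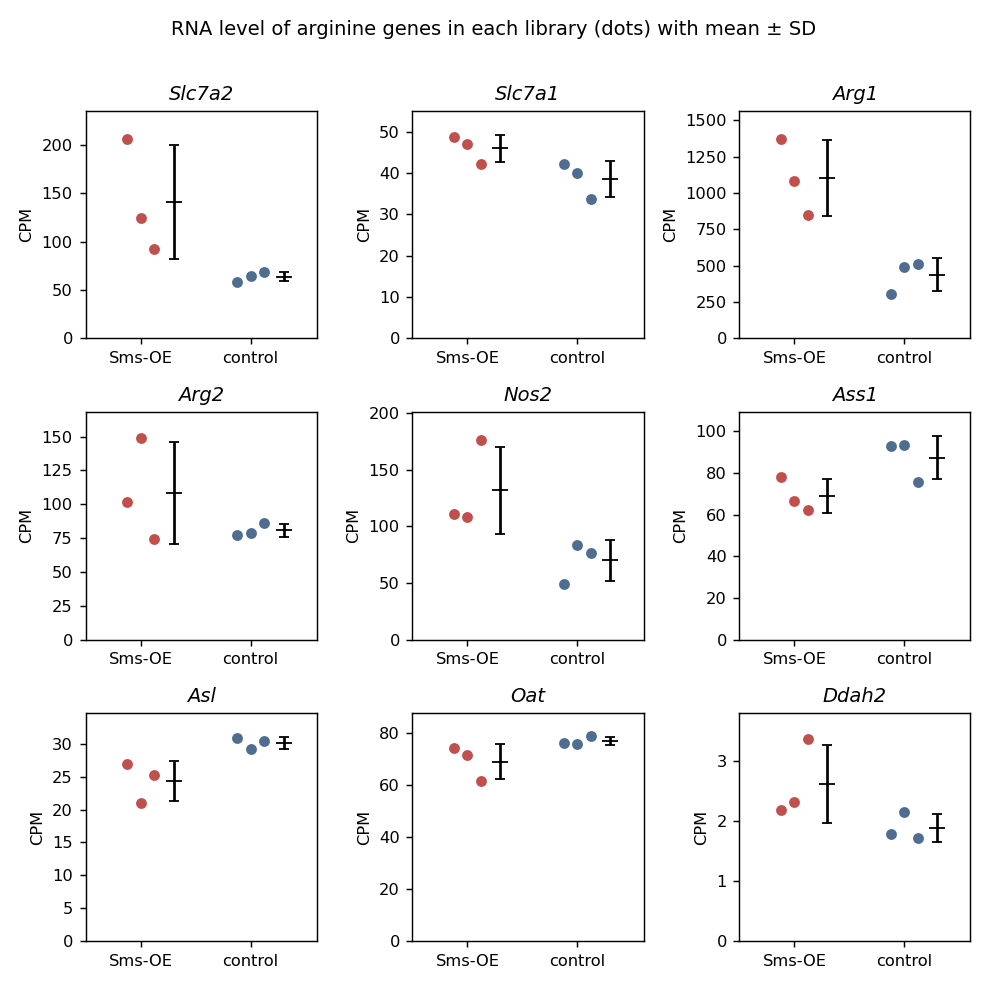
Level of each arginine gene in CPM (vertical axes, from 0) in the 3 Sms-OE libraries (left) and the 3 control libraries (right). Dots are libraries, and the bar beside them is the mean ± SD. Arg1, Slc7a2 and Nos2 sit above every control library in all 3 Sms-OE libraries, while the Ass1 and Arg2 groups overlap.

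Slc7a2 encodes the cationic amino acid transporter CAT2, which mouse macrophages induce on activation. Slc7a2 (ENSMUSG00000031596) lies on chromosome 8, 40862396 to 40922308, plus strand, in GRCm38. It stood at 206, 125 and 92.5 CPM in the Sms-OE libraries and at 58.6, 64.4 and 68.6 CPM in the control libraries. The groups did not overlap, and Sms-OE replicate 1 stood well above the other Sms-OE libraries. The mean was 141 ± 59 CPM in Sms-OE and 63.9 ± 5.0 CPM in control (SD, n = 3 each), a 2.21-fold rise (log2 1.14 ± 0.27 SE, adjusted p = 0.0187 by edgeR's quasi-likelihood test). Leaving out a control library gave a log2 value of 1.08 (replicate 1), 1.14 (replicate 2) or 1.19 (replicate 3). Calls over all genes then fell from 4908 to 3362, 3050 and 3348. The Slc7a2 call was lost each time, at an adjusted p of 0.0935, 0.0520 and 0.0603. It was also lost without the low-count filter (adjusted p = 0.0635) and after offsets for transcript length and GC content (adjusted p = 0.0569), and without Sms-OE replicate 1 the fold fell to a log2 value of 0.76, still past the threshold.

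Slc7a1 encodes CAT1, the widely expressed arginine transporter. Slc7a1 (ENSMUSG00000041313, chromosome 5, 148327410 to 148399904, minus strand) stood at 48.6, 47.0 and 42.2 CPM in Sms-OE and at 42.0, 39.9 and 33.6 CPM in control. The groups touched without overlapping, since the lowest Sms-OE library lay just above the highest control library. Its log2 fold change of 0.25 ± 0.11 did not pass (adjusted p = 0.114). After the offsets for length and GC content it was 0.03 ± 0.10, and without control replicate 3 it was 0.15 ± 0.10 (adjusted p = 0.344). Without strand-aware counting, reads of a gene and of an antisense partner cannot be told apart, and how strand was used in counting is not given. Slc7a2 shares 635 exonic bases with Gm26584 on the other strand, a non-coding gene not analysed here.

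Arg1 encodes arginase 1, the cytosolic enzyme that splits arginine into ornithine and urea and the most used arginine readout of M2 macrophages in mice. Arg1 (ENSMUSG00000019987) lies on chromosome 10, 24915221 to 24927484, minus strand, and no other annotated gene overlaps it. It stood at 1370, 1083 and 849 CPM in Sms-OE libraries and at 306, 492 and 513 CPM in control libraries. Every Sms-OE library lay well above the highest control library. The means were 1101 ± 261 CPM in Sms-OE and 437 ± 114 CPM in control (SD, n = 3 each), and the rise was 2.52-fold (log2 1.33 ± 0.22 SE, adjusted p = 0.00347 by edgeR's quasi-likelihood test). With each library left out in turn the log2 fold change ran between 1.13 and 1.49 and stayed past the threshold. Without both haemoglobin-rich libraries it was 1.64, but Sms-OE replicate 1, the highest for Arg1, was then the only Sms-OE library left.

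Most hepatocyte markers were lower in Sms-OE, and in bulk RNA fewer cells of a type and less RNA per cell cannot be told apart. Whether the RNA of these markers came from hepatocytes or from the hepatoma cells was not tested. The largest, Alb (albumin) and Trf (transferrin), averaged 193 and 280 CPM in Sms-OE and 395 and 271 CPM in control. Of 15 hepatocyte markers, 12 were lower in Sms-OE and none was higher, and their summed level was 403 to 619 CPM in Sms-OE and 858 to 1186 CPM in control. The mitochondrial urea cycle enzymes of hepatocytes were near absent: Otc, ornithine transcarbamylase, had 0 counts in all 6 libraries, which allows up to 3 counts in each. Cps1, carbamoyl phosphate synthetase, had 0 counts in each Sms-OE library and 16, 17 and 11 counts in the control libraries, at least 4.43-fold lower when each Sms-OE library is set at 3 counts (adjusted p = 0.0133 by edgeR's quasi-likelihood test; 0.0542 without control replicate 1, 0.0629 without control replicate 2 and 0.151 without both haemoglobin-rich libraries). It was the 1 gene that passed of 2 tested among 4 other urea cycle genes. The mean hepatocyte and hepatoma marker level did not overlap between the groups. With that level as a covariate Arg1 gave a log2 value of 3.18 ± 0.49 (adjusted p = 0.313), and no gene of 18277 passed in edgeR (1409 at an unadjusted p under 0.05), so the marker level and the group cannot be told apart in that fit.

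Arg2 encodes the mitochondrial arginase. Arg2 (ENSMUSG00000021125, chromosome 12, 79130777 to 79156301, plus strand) stood at 101, 149 and 74.3 CPM in Sms-OE and at 77.1, 79.1 and 86.4 CPM in control. The groups overlapped, since Sms-OE replicate 3 lay below every control library. The log2 fold change of 0.42 ± 0.22 did not pass (adjusted p = 0.201), and without Sms-OE replicate 2, its highest library, it was 0.11 ± 0.13 (adjusted p = 0.604). Without Sms-OE replicate 3 it was 0.63 ± 0.15 and passed (adjusted p = 0.0238). It also passed after the offsets for length and GC content, at 0.72 ± 0.19 (adjusted p = 0.0280), and with the neutrophil marker level as a covariate, chosen after seeing the data, 0.63 ± 0.13 (adjusted p = 0.0109). Sms-OE replicate 3 also had the lowest summed neutrophil markers, 6300 CPM against 7470 and 7966 CPM in the other Sms-OE libraries and 6971, 7728 and 9249 CPM in control. Arg2 shares 285 exonic bases with Vti1b and 116 with Gm48780, both on the other strand, at 35.5 ± 3.3 and 6.99 ± 2.2 CPM in Sms-OE and 52.0 ± 4.0 and 8.60 ± 0.62 CPM in control (SD, n = 3 each).

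The arginases are related genes on different chromosomes. A coding read longer than their longest shared stretch, 12 bases, cannot match both exactly. Their aligned coding bases were 64.9% identical, with a longest identical run of 12 bases, in capitals in these coding windows (5′ to 3′, GENCODE M21 transcripts on GRCm38, bases 503 to 554 of Arg1 and 560 to 611 of Arg2).
Arg1: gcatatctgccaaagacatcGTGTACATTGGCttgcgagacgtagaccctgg
Arg2: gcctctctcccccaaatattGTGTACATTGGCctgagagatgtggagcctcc

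Nos2 encodes inducible nitric oxide synthase, which competes with arginase for arginine and marks classically activated mouse macrophages. Nos2 (ENSMUSG00000020826, chromosome 11, 78920787 to 78960254, plus strand) stood at 110, 109 and 176 CPM in Sms-OE and at 49.5, 83.6 and 76.7 CPM in control. Every Sms-OE library lay above every control library, and Sms-OE replicate 3 was the highest. The rise was 1.88-fold (132 ± 39 CPM in Sms-OE and 69.9 ± 18 CPM in control, SD, n = 3 each; log2 0.91 ± 0.25 SE, adjusted p = 0.0310 by edgeR's quasi-likelihood test). Leaving out control replicate 1 or 3 ended the call (log2 0.71 and 0.98, adjusted p = 0.0502 and 0.0796). So did testing without the low-count filter (log2 0.90, adjusted p = 0.107) and with the neutrophil marker level as a covariate (log2 0.70, adjusted p = 0.0847). Without both haemoglobin-rich libraries the log2 value was 0.65. The constitutive synthases Nos1 and Nos3 were at most 0.322 and 0.651 CPM in any library, and neither passed.

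**Figure D2:**
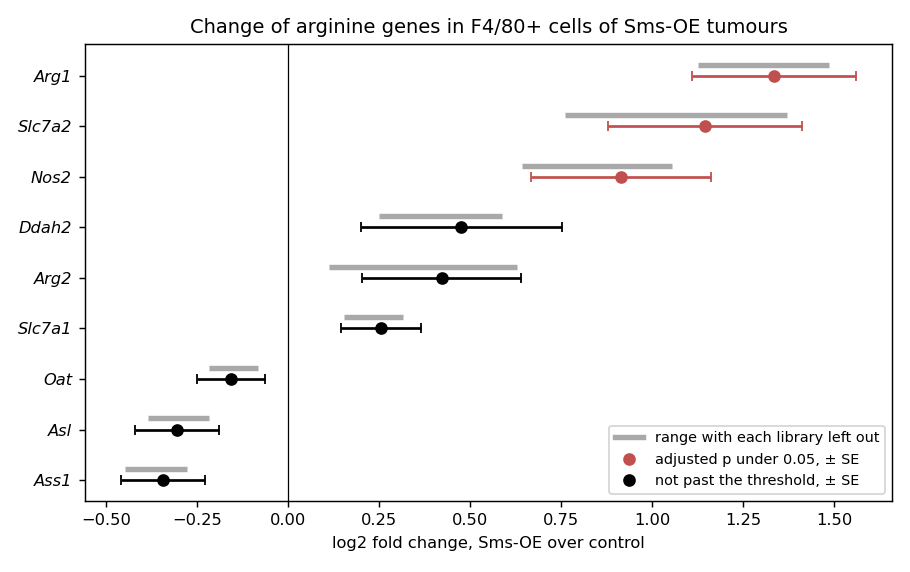
Log2 fold change of each arginine gene, Sms-OE over control (horizontal axis), with its SE. Red points are past an adjusted p of 0.05, and grey bars give the range when each library is left out in turn. Arg1 runs from 1.13 to 1.49, Slc7a2 from 0.76 to 1.37, and the 6 black points are not past the threshold.

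The balance of the competing enzymes was read as the ratio of Arg1 to Nos2 per transcript length. Arg1 exceeded Nos2 35.2-fold, 28.3-fold and 13.7-fold in the Sms-OE libraries, against 17.5-fold, 16.7-fold and 18.98-fold in the control libraries. The groups overlapped: Sms-OE replicates 1 and 2 lay above every control library and Sms-OE replicate 3 lay below every control library. The mean log2 ratio was 4.58 ± 0.71 in Sms-OE and 4.15 ± 0.09 in control (SD, n = 3 each), a difference of 0.43, which is smaller than the spread in Sms-OE. Within Sms-OE, Arg1 and Slc7a2 had the same order of libraries (highest in replicate 1, lowest in replicate 3), and Nos2 was highest in replicate 3.

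The genes that rebuild arginine from citrulline did not rise. Ass1, argininosuccinate synthase, performs the rate-limiting step of that route. Ass1 (ENSMUSG00000076441, chromosome 2, 31470207 to 31520672, plus strand) stood at 78.0, 66.5 and 62.1 CPM in Sms-OE and at 93.1, 93.5 and 75.6 CPM in control. The groups overlapped in Sms-OE replicate 1 and control replicate 3, and the log2 fold change of -0.34 ± 0.12 lay just outside the threshold (adjusted p = 0.0507). It passed without Sms-OE replicate 1 (-0.45, adjusted p = 0.0266), without control replicate 3 (-0.45, adjusted p = 0.0271), with the DESeq2 Wald test (adjusted p = 0.0458) and with limma-voom (adjusted p = 0.0347). After the offsets for length and GC content it was -0.15 ± 0.12 (adjusted p = 0.424), and without both haemoglobin-rich libraries -0.17 ± 0.15 (adjusted p = 0.530).

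Asl, argininosuccinate lyase, follows Ass1 in the same route and releases arginine and fumarate. Asl (ENSMUSG00000025533, chromosome 5, 130011258 to 130029247, minus strand) stood at 26.9, 21.0 and 25.3 CPM in Sms-OE and at 30.9, 29.2 and 30.5 CPM in control. Each Sms-OE library lay below each control library, yet the log2 fold change of -0.31 ± 0.12 did not pass (adjusted p = 0.0762).

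Oat, ornithine aminotransferase, links ornithine to glutamate and proline. Oat (ENSMUSG00000030934, chromosome 7, 132557478 to 132576398, minus strand) stood at 74.2, 71.5 and 61.4 CPM in Sms-OE and at 76.3, 75.8 and 78.8 CPM in control, with no overlap. The log2 fold change was -0.16 ± 0.09 (adjusted p = 0.243), and its sign turned after the offsets for length and GC content, to 0.08 ± 0.08. Without Sms-OE replicate 3 it was -0.08 ± 0.09 (adjusted p = 0.554), and without both haemoglobin-rich libraries -0.06 ± 0.11 (adjusted p = 0.786).

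Ddah2 encodes a dimethylarginine dimethylaminohydrolase, a family known for breaking down methylated arginines that inhibit nitric oxide synthases. Ddah2 (ENSMUSG00000007039, chromosome 17, 35059035 to 35062095, plus strand) was the lowest of the 9 genes, at 2.18, 2.31 and 3.36 CPM in Sms-OE (115, 115 and 174 counts) and 1.79, 2.15 and 1.71 CPM in control (107, 120 and 82 counts). The groups came close without overlapping, and the log2 fold change of 0.48 ± 0.28 did not pass (adjusted p = 0.238). Without Sms-OE replicate 3, its highest library, it was 0.25 ± 0.29 (adjusted p = 0.598).

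Levels of different genes were compared per transcript length, in TPM. TPM carry no TMM factors, and each arginine gene stood higher in Sms-OE relative to control in TPM than in CPM. Asl, for example, averaged 24.4 CPM in Sms-OE and 30.2 CPM in control, but 23.9 and 24.6 TPM. The TPM below therefore serve to compare genes within a group. Differences between the groups are those of the test given above. Arg1 led by far, at 1749 ± 422 TPM in Sms-OE and 572 ± 115 TPM in control (SD, n = 3 each). Arg2 followed at 176 ± 50 TPM in Sms-OE and 111 ± 4.3 TPM in control, then Ass1 at 95.5 ± 13 TPM in Sms-OE and 102 ± 20 TPM in control. Arg2 and Ass1 overlapped in control and not in Sms-OE. Oat came next, at 75.3 ± 6.55 TPM in Sms-OE and 70.1 ± 5.5 TPM in control, higher in Sms-OE on this scale and lower in CPM, and Nos2 at 74.6 ± 26 TPM in Sms-OE and 32.4 ± 7.1 TPM in control.

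The ranges of Oat and Nos2 overlapped in Sms-OE and not in control. Below them, Slc7a2 stood at 42.0 ± 18 TPM in Sms-OE and 15.8 ± 0.40 TPM in control, and Asl at 23.9 ± 4.3 TPM in Sms-OE and 24.6 ± 2.5 TPM in control. These traded places: Slc7a2 lay above Asl in every Sms-OE library and below it in every control library. Slc7a1, at 15.0 ± 1.1 TPM in Sms-OE and 10.6 ± 2.15 TPM in control, and Ddah2, at 4.62 ± 1.4 TPM in Sms-OE and 2.76 ± 0.47 TPM in control, came last. With the median transcript length in place of the longest, 5 of the 9 genes kept their rank over all libraries, and Arg1 stayed first. Ass1 then stood above Arg2, and Slc7a1 above Asl.

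**Figure D3:**
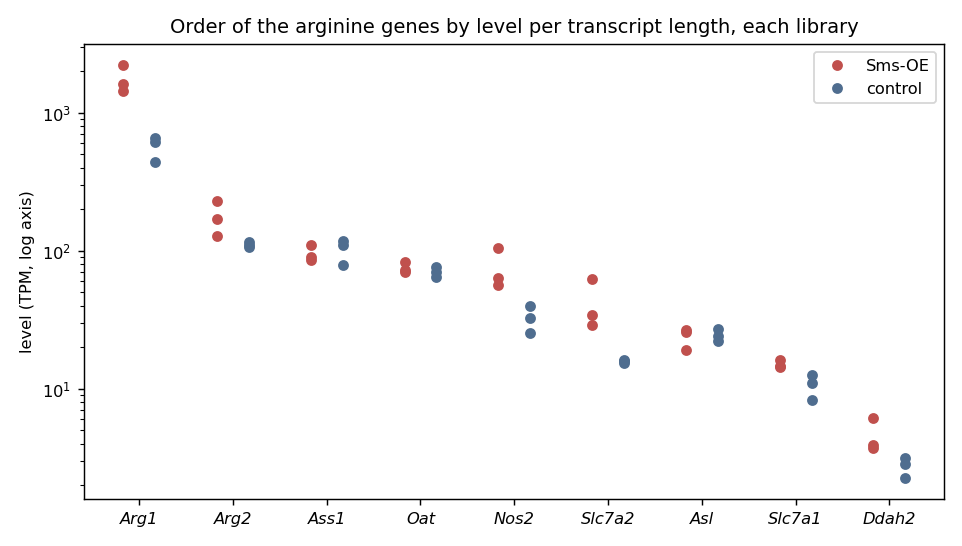
Level of each arginine gene per length of its longest transcript, in TPM (vertical log axis), in each Sms-OE library (red, left of each pair) and control library (blue, right). Genes run from the highest to the lowest mean. Arg1 stands above all others in every library, and Slc7a2 lies above Asl in Sms-OE and below it in control.

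The genes whose pattern was most like Arg1 were sought among 10295 tested genes with a mean of at least 5 CPM, by Pearson's correlation of log2 CPM over the 6 libraries, as a description only, since the points fall into both groups and share their libraries. For Arg1 these were C1galt1 (r = 0.9978), an enzyme of O-glycan synthesis, Taf1d (r = 0.9949), a subunit of a ribosomal RNA transcription factor, and Trem2 (r = 0.9924), a lipid-sensing receptor of macrophages. Trem2 stood at 22.8, 18.99 and 17.8 CPM in Sms-OE and at 11.7, 14.6 and 14.2 CPM in control, the same order of libraries as Arg1 in Sms-OE but not in control. For Nos2 they were Fam102a (r = 0.9970), Itga4 (r = 0.9931), the integrin alpha 4 chain, and Kif13b (r = 0.9923), a kinesin. Of the genes compared, 79 had r above 0.95 with Arg1 and 90 with Nos2.

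Other genes came from 6 lists of 85 genes, 27 of them regulators of Arg1 and Nos2 and the rest genes of arginine handling. Of these 80 were tested, and 12 were higher and 21 lower. Of all genes tested 12.5% were higher and 14.3% lower, the shares to set beside each list below. Without control replicate 2 the lower ones numbered 13, and without both haemoglobin-rich libraries 5, with 8 higher. Of 11 tested genes in the list of other arginine transport and sensing genes, 2 rose and none fell (median log2 0.24). Whether Slc22a4, the first below, carries arginine was not tested here. Slc22a4, an organic cation transporter, was 4.67 ± 0.14 CPM in Sms-OE and 1.67 ± 0.32 CPM in control (SD, n = 3 each; log2 1.48 ± 0.24, adjusted p = 0.00198 by edgeR's quasi-likelihood test). Slc38a9, the lysosomal arginine sensor of the mTOR pathway, was 28.01 ± 2.55 CPM in Sms-OE and 21.0 ± 0.60 CPM in control (log2 0.42 ± 0.11, adjusted p = 0.0185). That call was lost without Sms-OE replicate 3, control replicate 2 or control replicate 3 (adjusted p between 0.0685 and 0.0749), with the neutrophil marker covariate (0.0537) and without both haemoglobin-rich libraries (0.301). After the offsets for length and GC content the log2 value was 0.14 (0.389).

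Downstream of arginase, among 14 genes that use or make ornithine, proline and glutamate, 3 rose and 4 fell (median log2 -0.02). Odc1, ornithine decarboxylase, the entry of polyamine synthesis, fell to 204 ± 24.5 CPM in Sms-OE, against 270 ± 9.3 CPM in control (log2 -0.41 ± 0.10, adjusted p = 0.0160 by edgeR's quasi-likelihood test). Leaving out control replicate 2 ended the Odc1 call (adjusted p = 0.0534), as did the offsets for length and GC content (0.137) and leaving out both haemoglobin-rich libraries (0.0811). Pycrl, a pyrroline-5-carboxylate reductase that makes proline, fell 1.71-fold (adjusted p = 0.00956, and 0.119 without both haemoglobin-rich libraries). Glul, glutamine synthetase, rose 1.30-fold to 162 ± 9.03 CPM in Sms-OE, against 124 ± 0.80 CPM in control (adjusted p = 0.00715).

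Beside Nos2, 11 genes of nitric oxide synthesis were tested, and 1 rose and 4 fell (median log2 -0.85). Nitric oxide synthases need tetrahydrobiopterin, and the genes of its handling split. Gch1, GTP cyclohydrolase, its rate-limiting enzyme, rose to 50.6 ± 2.9 CPM in Sms-OE, against 33.6 ± 1.8 CPM in control (log2 0.59 ± 0.09, adjusted p = 0.00177 by edgeR's quasi-likelihood test). Spr, sepiapterin reductase, which completes the synthesis, fell 1.69-fold (adjusted p = 0.00296, and 0.0741 without both haemoglobin-rich libraries). Qdpr, which regenerates the cofactor, fell 1.80-fold (22.7 ± 3.1 CPM in Sms-OE and 40.9 ± 1.3 CPM in control, adjusted p = 0.00095).

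**Figure D4:**
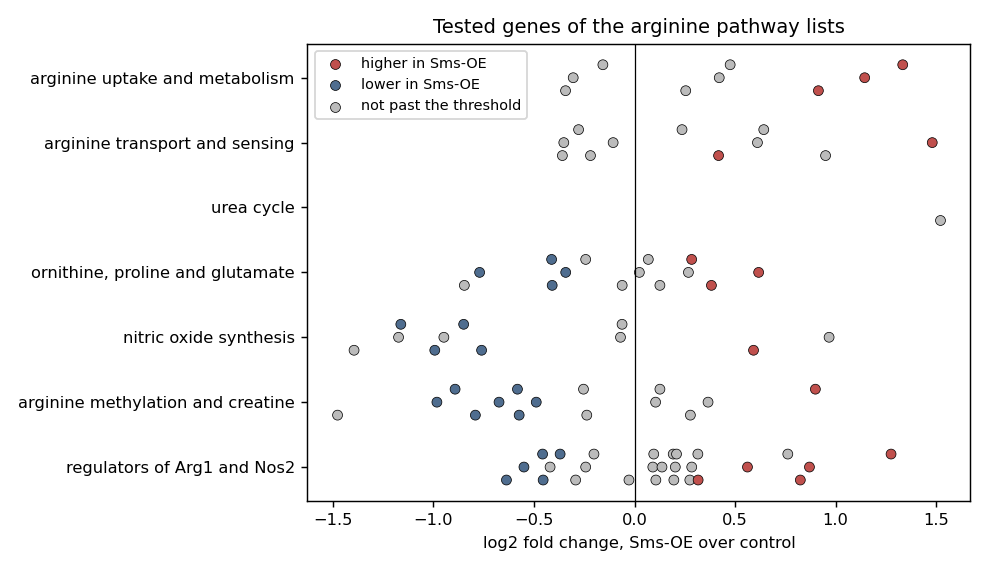
Log2 fold change, Sms-OE over control (horizontal axis), of every tested gene of the arginine genes (top row) and of the 6 other lists; red is higher and blue lower at an adjusted p under 0.05. Heights within a row only separate points, and Cps1 is left out because it had 0 counts in Sms-OE. The nitric oxide synthesis row holds 4 lower genes and 1 higher gene.

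Among 27 regulators known to act on Arg1 or Nos2 in mouse macrophages, 5 rose and 5 fell (median log2 0.14). Il10, an anti-inflammatory cytokine, rose to 13.0 ± 2.1 CPM in Sms-OE, against 5.36 ± 1.2 CPM in control (log2 1.28 ± 0.20, adjusted p = 0.00177 by edgeR's quasi-likelihood test). Klf4, a transcription factor linked to M2 activation, rose to 121 ± 12 CPM in Sms-OE, against 66.1 ± 10 CPM in control (log2 0.87 ± 0.12, adjusted p = 0.00114), and Stat3, which carries the signal of interleukin 10, rose 1.48-fold (adjusted p = 0.00203). Irf8, a factor of interferon responses and macrophage development, fell to 139 ± 7.4 CPM in Sms-OE, against 204 ± 14 CPM in control (log2 -0.55 ± 0.09, adjusted p = 0.0021). Among the other calls, given here after their values were seen, Ifng, interferon gamma, the classical inducer of Nos2, rose to 21.4 ± 2.6 CPM in Sms-OE, against 12.1 ± 2.2 CPM in control (log2 0.82 ± 0.16, adjusted p = 0.00507), and Pparg, a factor linked to M2 activation, fell to 7.99 ± 1.2 CPM in Sms-OE, against 12.4 ± 1.2 CPM in control (log2 -0.64 ± 0.16, adjusted p = 0.0167). Il13ra1 also rose, and Hif1a, Ifngr2 and Irf1 also fell.

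Markers of other cells moved in both directions beside these values. Of 12 neutrophil markers 1 was higher and none lower, with sums that overlapped (6300 to 7966 CPM in Sms-OE and 6971 to 9249 CPM in control), none of them at 0. The macrophage markers gave 2 higher and 4 lower of 12 (7544 to 8769 CPM in Sms-OE and 7520 to 7671 CPM in control). Itgam and Cd14 were the higher ones, and Cd68, C1qa, C1qb and C1qc the lower ones. Erythroid markers gave none higher or lower of 7 tested in edgeR, with sums of 217, 5051 and 5014 CPM in Sms-OE and 43.6 to 189 CPM in control. Hepatoma markers gave 2 lower of 4 tested, with sums of 49.3 to 69.8 CPM in Sms-OE and 72.0 to 88.1 CPM in control, and Igf2 and Dlk1 at 0 throughout. Of 11 T and NK cell markers 1 was higher and none lower, with sums that overlapped (463 to 653 CPM in Sms-OE and 387 to 603 CPM in control). Dendritic cell markers gave 1 higher and 6 lower of 10 (590 to 648 CPM in Sms-OE and 788 to 975 CPM in control), and endothelial markers 1 higher and 7 lower of 10 (135 to 183 CPM in Sms-OE and 214 to 233 CPM in control). Beyond the covariate fits given, the part of these cells in the arginine genes was not tested.

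**Figure D5:**
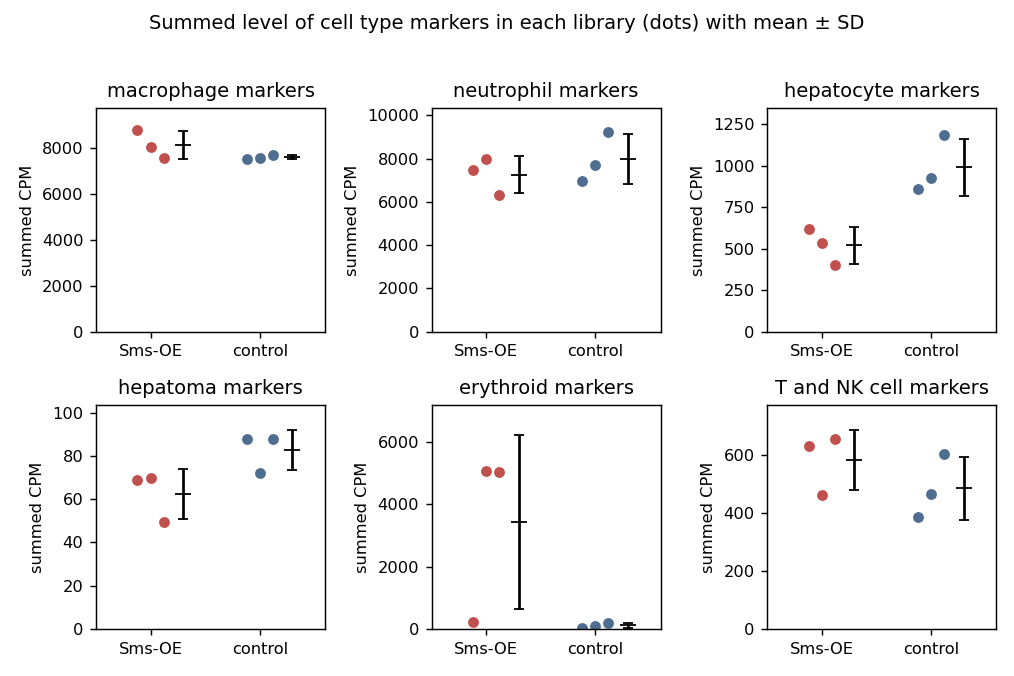
Summed CPM of the markers of 6 cell types (vertical axes, from 0) in the 3 Sms-OE libraries (left) and 3 control libraries (right), with the mean ± SD beside the dots. Hepatocyte markers are lower in every Sms-OE library than in every control library, neutrophil sums overlap, and Sms-OE replicates 2 and 3 hold the high erythroid sums of 5051 and 5014 CPM.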

How the data were processed

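RNA of F4/80+ cells was sequenced in 3 Sms-OE and 3 control libraries. Oligo(dT) beads selected the RNA and dUTP marked its strand, per the labels' protocols. Among the tools in the submitters' processing notes are HISAT2 2.2.1 and StringTie 2.1.6, after cutadapt 1.9. Which build, annotation and strand setting were used in counting is not given in the sources used here. The values are estimated counts for each gene as the authors deposited them, whole numbers without normalization. In each library more genes held the value 4 than 3 or 5, so their counting error is uncertain.

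Symbols, coordinates (GRCm38), overlaps and transcripts came from GENCODE M21 by Ensembl identifier. Groups and replicate numbers came from sample titles. No pair of libraries within a group had more than 17.3% identical counts. The test was edgeR 4.0.16 in R 4.3.3 (filterByExpr, TMM, robust glmQLFit, glmQLFTest) on all genes, with SE from the F statistic. Fold changes are Sms-OE over control. The fit was also run on simulated counts in which far fewer genes changed than were called here, so that run does not bear on these calls.

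Alternatives were other scalings, filters and tests (DESeq2 1.42.0, limma 3.58.1), a replicate block, marker covariates, length and GC offsets, removal of mitochondrial and haemoglobin rows, and each library left out. The neutrophil covariate, the removal of both haemoglobin-rich libraries and all alternatives on other genes were added after seeing the data. Members and lists were chosen with earlier results of these data known. Named genes were the 9 members, up to 4 called genes per pathway list by smallest p, and the 3 most like Arg1 and Nos2. Marker lists are given by sums, with defining genes named after their values were seen. Pycr3 was matched as Pycrl. Promoters and motifs were not used here. Some genes and sequences that this rule or the lists select are not reported here.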

Additional observations from a re-analysis of the deposited data

How the results depend on the processing

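Over 20 alternatives, Arg1 kept its direction and its call in 19, Slc7a2 and Nos2 kept theirs in 14 each, Asl and Slc7a1 never passed, and Ass1 passed as lower in 6 and Arg2 as higher in 3. No alternative turned the direction of Arg1, Slc7a2 or Nos2. With the hepatocyte and hepatoma marker level as covariate 0 genes were higher and 0 lower in edgeR (1409 at an unadjusted p under 0.05, 3 of them members), so 0 members were higher and 0 other arginine pathway genes passed in either direction; there Oat gave 0.33 and Ddah2 -0.73, against -0.16 and 0.48 in the test reported. With the length and GC offsets Oat gave 0.077. The higher members numbered 1 and the lower members 1 without the low-count filter, where Slc7a2 and Nos2 missed the threshold and Ass1 passed, and 1 member was lower with the DESeq2 Wald test, with limma-voom and with the replicate block. The cause of these shifts was not tested. With each library left out, members higher ranged from 1 to 4 and members lower from 0 to 1, all genes higher from 1366 to 2015 and lower from 1684 to 2473, and other arginine pathway genes higher from 9 to 13 and lower from 13 to 20; over all genes, 1366 higher and 1684 lower came without control replicate 2, and 1498 higher without control replicate 3. Without both haemoglobin-rich libraries, which leaves 1 Sms-OE library assumed to vary like the controls, 690 genes were higher and 694 lower, and 5 other arginine pathway genes were lower. Deviations from the group mean correlated at 0.271, 0.071 and -0.131 between same-numbered libraries and at -0.365 to 0.322 between the others. With 3 libraries per group these values cannot decide whether the numbers pair libraries. With the replicate block 2117 genes were higher and 2415 lower in edgeR, and Cps1 had an adjusted p of 0.0553. With the median transcript length the log2 ratio of Arg1 to Nos2 was 5.36 in Sms-OE and 4.93 in control, the difference between the groups stayed at 0.43, and 5 of the 9 members kept their rank; with each library left out the difference ran from 0.15 to 0.83.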

Other observations

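Of 15 tested genes that methylate or deiminate protein arginine, break down methylated arginine, charge arginine to its tRNA or serve creatine, 7 fell, 1 rose and 7 did not pass, beside 14.3% of all genes tested that were lower and 12.5% that were higher. The list had a median log2 fold change of -0.49, against -0.0006 over all genes tested. Prmt1, the main protein arginine methyltransferase, fell to 45.1 ± 5.7 CPM in Sms-OE, against 72.0 ± 5.5 CPM in control (SD, n = 3 each; log2 -0.67 ± 0.11 SE, adjusted p = 0.00211 by edgeR's quasi-likelihood test). Gatm, which starts creatine synthesis from arginine and glycine, fell to 69.1 ± 15 CPM in Sms-OE, against 120 ± 4.5 CPM in control (log2 -0.79 ± 0.14, adjusted p = 0.00308). Rars, the arginyl-tRNA synthetase, fell to 42.8 ± 4.8 CPM in Sms-OE, against 63.6 ± 4.3 CPM in control (log2 -0.57 ± 0.10, adjusted p = 0.00347). The creatine transporter Slc6a8 rose to 12.1 ± 1.1 CPM in Sms-OE, against 6.47 ± 1.6 CPM in control (log2 0.90 ± 0.20, adjusted p = 0.00869). The calls of Prmt1, Rars and Slc6a8 were lost without both haemoglobin-rich libraries, with adjusted p = 0.0625, 0.0832 and 0.0718.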
